A study of Drosophila melanogaster with 24 samples.

Results

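The change from late afternoon to early night was followed in fly heads by setting the 4 libraries collected at ZT14 against the 4 collected at ZT10, 8 of the 24 libraries of the series. Zeitgeber time (ZT) counts hours from lights on, and the light phase of 12 h ended between these 2 times. The libraries were taken by their labelled time and genotype: 2 replicates of wild-type heads (strain w1118, a strain mutant for the eye colour gene white that is labelled as the control) and 2 of cwo5073 mutant heads at each time. All flies had been kept at 25 °C in 12 h of light and 12 h of dark for 3 days and, per the labels, were collected on the day after. The treatment text in the labels names only ZT2 and ZT14 as collection times, and ZT10, like the other times, is taken from the sample titles. The lesion of the cwo5073 allele, the sex and age of the flies and the number of heads in a sample are not stated in the labels. Because light was switched off between the samplings, the transition itself and the passing of 4 h of the daily cycle cannot be told apart.

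In the fly clock, the activators CLOCK and CYCLE bind DNA as a pair and drive genes that feed back on them. The products of per and tim return to the nucleus in the night and repress the pair. A second loop runs through vri and Pdp1, which act on the Clk gene, and cwo encodes a repressor that binds the same sites as the activators. Light reaches the loop through cryptochrome, which in light leads to the loss of TIM protein.

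Each library held 11319605 to 19168439 counts, and 10671 genes had enough counts to be tested. The cwo gene itself gave 124 and 102 CPM at ZT10 and 176 and 152 at ZT14 in the wild type, and 609 and 538 at ZT10 and 917 and 834 at ZT14 in the mutant. The mutant thus held more cwo RNA than the wild type at both times, and the counts alone say nothing about which part of the transcript the allele changes. Of 26 photoreceptor marker genes, 25 had counts in all 8 libraries and 1 was at 0 in all 8. The summed level of 5 female-biased markers was 51831 to 55742 CPM in the replicate 1 libraries of the mutant and 4946 to 11562 CPM in the other 6 libraries; its part in the mutant values below was not tested. The replicates of a group are not said to come from separate cultures, and each p-value therefore rests on a spread between libraries that may be technical.

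With genotype as a block, edgeR's quasi-likelihood test called 3 genes higher at ZT14 (0.0281% of the genes tested) and 2 genes lower (0.0187%), at a p adjusted by Benjamini-Hochberg under 0.05. The higher genes were CG17386, CG8419 and CG17327, and the lower genes were Side and CG11760. DESeq2 called 34 higher and 36 lower on the same libraries. Without adjustment, 321 genes (3.01%) were higher and 294 (2.76%) lower at p under 0.05. Levels are given as CPM, the count of a gene relative to the library total after scaling by TMM, log2 fold changes are those of the edgeR fit with their SE, and the 2 values of a group are in the order of replicates 1 and 2.

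Of the called genes with counts in all 8 libraries, CG17386 rose most. It is a gene without introns on the plus strand at dm6 chr2R:14420324-14424764. RefSeq names it Achl (Achilles), a clock-controlled gene of the fly head linked to the control of immune genes. Its counts were 3.92 and 3.73 CPM at ZT10 and 101 and 77.1 at ZT14 in the wild type, and 5.4 and 6.25 at ZT10 and 222 and 164 at ZT14 in the mutant. Every ZT14 library thus stood far above every ZT10 library, and the mutant stood above the wild type at ZT14. Over both genotypes the level rose 28.2-fold (log2 4.82 ± 0.18, adjusted p = 3.60e-05), with a mean of 4.83 ± 1.21 CPM at ZT10 and 141 ± 65.2 at ZT14 (SD, n = 4). The step was called in each genotype alone, with a log2 fold change of 4.54 ± 0.23 in the wild type (adjusted p = 4.50e-04) and 5.05 ± 0.23 in the mutant (adjusted p = 7.78e-04). The difference between the genotypes was 0.50 ± 0.30 (adjusted p = 0.905) and was not called.

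CG17386 has 2 annotated transcripts of 1 exon each, 4271 and 4441 nt long, that share their start and differ in where they end. Of the 8 libraries, 7 listed the transcript of 4271 nt at 0 FPKM, and the mutant ZT14 replicate 1 library gave it 45.1 FPKM and the longer one 1.68 FPKM. In the other 3 ZT14 libraries the longer transcript was at 21.9, 17.1 and 35.9 FPKM, against 0.804 to 1.33 FPKM at ZT10. At ZT14 the FPKM thus stood on the longer form in 3 libraries and on the shorter one in the fourth.

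CG8419, on the plus strand of chr2L:8206171-8209637, gave 8.03 and 11.5 CPM at ZT10 and 39.9 and 44.3 at ZT14 in the wild type, and 14 and 19.6 at ZT10 and 43.6 and 54.6 at ZT14 in the mutant. The lowest ZT14 value, 39.9 CPM, lay above the highest ZT10 value, 19.6 CPM. The pooled step was 3.52-fold (log2 1.82 ± 0.19, adjusted p = 0.0238). It was called in the wild type (log2 2.10 ± 0.24, adjusted p = 0.0322) and not in the mutant (log2 1.55 ± 0.23, adjusted p = 0.439), and the difference, -0.55 ± 0.33, was not called (adjusted p = 0.905). The wild-type call was lost in 6 of the 8 fits that left out 1 library (adjusted p up to 0.177). The pooled call was lost without wild-type ZT10 replicate 2, ZT14 replicate 1 or ZT14 replicate 2, and without mutant ZT10 replicate 1 or ZT14 replicate 2, at an adjusted p of 0.134, 0.116, 0.119, 0.121 and 0.142. On the other strand lies Su(var)205, the gene of heterochromatin protein 1, at 97.9 and 89.7 CPM at ZT10 and 72.1 and 79.3 at ZT14 in the wild type, and 61 and 77 at ZT10 and 66 and 82.5 at ZT14 in the mutant, and no label or file header says whether the counting used strand.

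Side, at chr2L:19027710-19030780 on the plus strand and named Sidpn (similar to deadpan) by RefSeq, encodes a transcription factor of the same basic helix-loop-helix Orange family as cwo. It gave 90.3 and 94 CPM at ZT10 and 41.6 and 47.1 at ZT14 in the wild type, and 74.7 and 68.6 at ZT10 and 31 and 35.6 at ZT14 in the mutant. All 4 ZT14 libraries lay below all 4 ZT10 libraries, and the mutant lay below the wild type at each time. The level fell by 1.08 on the log2 scale with an SE of 0.08, which is 2.11-fold lower (adjusted p = 0.00308). The step in the wild type was -1.05 ± 0.12 (adjusted p = 0.0322) and in the mutant -1.11 ± 0.12 (adjusted p = 0.141), a difference of -0.05 ± 0.17 (adjusted p = 0.97). The wild-type call was lost in all 8 fits that left out 1 library (adjusted p from 0.0702 to 0.237).

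The other called genes shared their place with a second gene model. CG11760, at chr3R:8719198-8721320, gave 12.7 and 8.37 CPM at ZT10 and 1.09 and 1.42 at ZT14 in the wild type, and 6.13 and 9.32 at ZT10 and 0.938 and 0.959 at ZT14 in the mutant, a log2 change of -3.04 ± 0.22 (adjusted p = 0.00308). It overlaps CG8116 on the same strand, which gave 42.4 and 32.4 CPM at ZT10 and 42.6 and 38.4 at ZT14 in the wild type, and 31 and 30.3 at ZT10 and 45 and 40.8 at ZT14 in the mutant. With the counts of both models summed, the step was -0.000304 with an SE of 0.126. The call was lost with limma on log2(FPKM + 1) (adjusted p = 0.0686) and with all 24 libraries in 1 fit (adjusted p = 0.36). CG11760 lay under the average level set for naming genes (3 on the log2 CPM scale), and CG17327 had no count in the mutant at ZT10 or ZT14. Both are named because they are called.

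CG17327 and CG44194 occupy the same span, chr3R:12996876-12997726 on the minus strand. CG17327 had no count in the wild type at ZT10 or in the mutant at ZT10 and ZT14, and stood at 36.7 and 46.4 CPM in the wild type at ZT14. Against a floor of 3 counts per library it was at least 184-fold higher there. At the other times, with all 24 libraries scaled together, CG17327 was at 32.6 to 117 CPM in the wild type. In the mutant it was at 0 at those times except in ZT18 replicate 2 (38.5 CPM) and ZT22 replicate 2 (44.1 CPM). CG44194 gave 55.3 and 44 CPM at ZT10 and 0.128 and 0.185 at ZT14 in the wild type, and 32.6 and 38.3 at ZT10 and 32.8 and 36.1 at ZT14 in the mutant, so each library held counts on 1 of these models and almost none on the other. The call was lost without each wild-type library in turn (adjusted p = 0.0597, 0.0975, 0.233 and 0.234). With both models summed, the step was -0.14 ± 0.12 (log2, adjusted p = 0.953). A fit with same-strand overlapping models summed called 3 of 10210 loci (0.0294%), CG17386, CG8419 and Side.

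**Figure D1:**
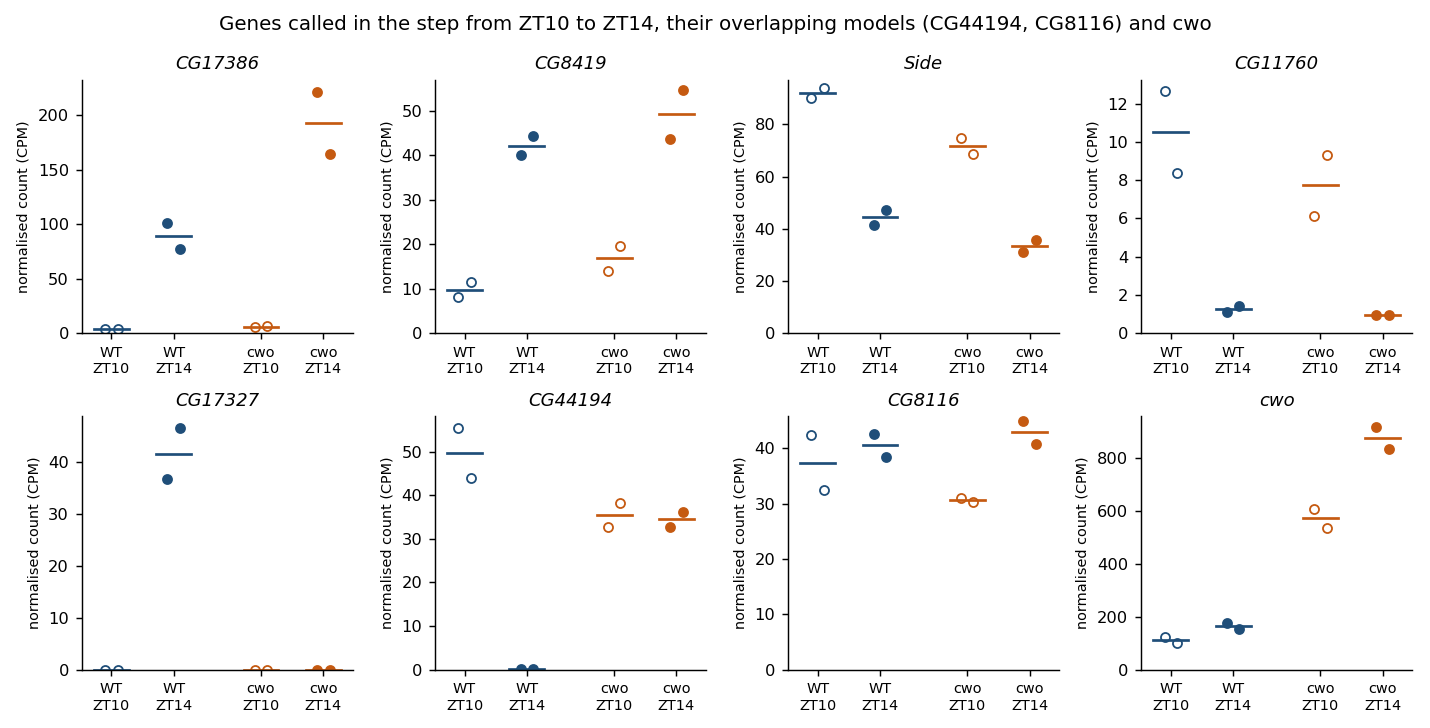
Normalised counts (CPM, linear axis from 0) of the 5 called genes, of the models CG44194 and CG8116 that overlap 2 of them, and of cwo, in wild-type (blue) and cwo5073 (orange) heads. Points are the 2 libraries of a group, open at ZT10 and filled at ZT14, and lines are their means; CG17386 and CG8419 are higher and Side is lower at ZT14 in both genotypes, while CG17327 and CG44194 replace each other in the wild type.

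A further 8 genes had an adjusted p between 0.05 and 0.1 and are named here after their values were seen. Of these, 4 were higher at ZT14: MESR3 (log2 0.79 ± 0.10), Myo28B1, an unconventional myosin (1.48 ± 0.19), CG1632 (0.76 ± 0.10) and CG17323, a UDP-glycosyltransferase that RefSeq names Ugt36D1 (0.58 ± 0.08). The other 4 were lower: Ir75a, an olfactory receptor of the ionotropic family (-1.14 ± 0.15), the chaperone gene Hsp83 (-1.04 ± 0.15), the light-input gene cry (-0.64 ± 0.09) and Swip-1, a calcium-binding actin regulator (-0.51 ± 0.07). Adjusted p-values ran from 0.0617 for MESR3 to 0.0903 for Hsp83 and Swip-1. In all 8 the ZT10 and ZT14 libraries did not overlap within either genotype. The 8 were picked by their p in these same libraries, so this separation is not independent evidence of a step. Of all genes tested, 436 (4.09%) were separated in this way upward and 322 (3.02%) downward, without such a choice. Within 1 genotype alone such separation was common, at 20.6% higher and 17.9% lower in the wild type and 14.7% and 15.4% in the mutant.

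In the edgeR fit of the 8 libraries none of the 19 core clock genes was called, against 5 of all genes tested (0.0469%). At an unadjusted p under 0.05, 5 were higher (per, tim, vri, cwo and CG31324) and 2 lower (Clk and cry), against 3.01% and 2.76% of all genes. DESeq2 called per and cwo higher and Clk and cry lower. In both genotypes the ZT14 libraries lay above the ZT10 libraries for 4 of the 19 (per, tim, cwo and cyc) and below for 2 (Clk and cry). The shares of all genes separated in this way were 4.09% and 3.02%.

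Of the activators, Clk gave 13.1 and 17.9 CPM at ZT10 and 7.23 and 4.25 at ZT14 in the wild type, and 21.5 and 27.2 at ZT10 and 12.9 and 17.9 at ZT14 in the mutant. All mutant values at ZT10 lay above all wild-type values at ZT10, and the same held at ZT14. The pooled step was -1.03 ± 0.24 (adjusted p = 0.353), with -1.44 ± 0.31 in the wild type and -0.66 ± 0.29 in the mutant. When all 24 libraries shared 1 estimate of the spread, the step was -1.05 and was called (adjusted p = 0.0405). Its partner cyc stayed within a narrow band, with 35.6 and 35.3 CPM at ZT10 and 38.6 and 39.1 at ZT14 in the wild type, and 35.6 and 37.6 at ZT10 and 40.7 and 42 at ZT14 in the mutant and a step of 0.15 ± 0.07 (adjusted p = 0.862). Per length, Clk was the lowest of the 19, at a mean of 4.2 FPKM at ZT10 and 2.3 FPKM at ZT14.

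Among the repressors, per gave 147 and 202 CPM at ZT10 and 339.6 and 336 at ZT14 in the wild type, and 226 and 196 at ZT10 and 351 and 264 at ZT14 in the mutant. The mutant ZT14 replicate 2 library was the lowest of the 4 at that time, and no ZT14 value fell below a ZT10 value. The step was 0.75 ± 0.15 (adjusted p = 0.251), 0.95 ± 0.20 in the wild type and 0.54 ± 0.20 in the mutant. The counts of tim were 616 and 923 CPM at ZT10 and 1138 and 1469 at ZT14 in the wild type, and 989 and 1109 at ZT10 and 1166 and 1138 at ZT14 in the mutant. The wild-type values spread from 616 to 1469 CPM, while the 4 mutant values lay between 989 and 1166 CPM. The step of tim was 0.45 ± 0.18 (adjusted p = 0.815), 0.76 ± 0.22 in the wild type and 0.14 ± 0.22 in the mutant, and the difference of -0.62 ± 0.31 was not called (adjusted p = 0.905).

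The per gene has 2 annotated transcripts that differ by an intron of 86 nt in the 3′ UTR, at chrX:2692391-2692476, the splicing of which is known from work on temperature and day length. The transcript with the intron removed, 4441 nt long, was at 13.1 and 13.7 FPKM at ZT10 and 35.3 and 32.6 FPKM at ZT14 in the wild type. In the mutant it was at 17.3 and 10.5 FPKM at ZT10 and 40.7 and 28.05 FPKM at ZT14. All 4 ZT14 values thus exceeded all 4 ZT10 values. On the log2(FPKM + 1) scale its step was 1.27 ± 0.18 (limma, unadjusted p = 2.78e-04, adjusted p = 0.355), and that of the transcript of 4527 nt that keeps the intron was 0.38 ± 0.22 (adjusted p = 1).

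The share of per FPKM on the transcript without the intron was 43.1% and 31.3% at ZT10 and 48.6% and 44.2% at ZT14 in the wild type. It was 38.3% and 25.4% at ZT10 and 57.7% and 49.2% at ZT14 in the mutant. Both genotypes had the higher share in the early night, with no overlap between times. The share was not tested, and it was not computed for other genes, so no background stands beside this separation. These shares rest on how the submitters' software divided reads between overlapping models. Of 78 clock gene transcripts tested none was called, and 6 of 19127 transcripts were called in the whole table (0.0314%), with 876 transcripts (4.58%) under 0.05 without adjustment.

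In the second loop, vri gave 395 and 315 CPM at ZT10 and 443 and 433 at ZT14 in the wild type, and 330.2 and 285 at ZT10 and 403 and 330.0 at ZT14 in the mutant, a step of 0.28 ± 0.11 (adjusted p = 0.814). Pdp1 gave 1916 and 1775 CPM at ZT10 and 1295 and 1774 at ZT14 in the wild type, and 1439 and 1777 at ZT10 and 1582 and 1928 at ZT14 in the mutant, and its step of -0.07 ± 0.15 had opposite signs in the wild type (-0.27) and the mutant (0.13). The ZT14 libraries of cwo lay above the ZT10 libraries in each genotype, with a step of 0.57 ± 0.10 (adjusted p = 0.191), with 0.54 ± 0.16 in the wild type and 0.61 ± 0.15 in the mutant. CG31324, the fly ortholog of the CLOCK-interacting protein CIPC, gave 97.8 and 77.5 CPM at ZT10 and 107 and 97.1 at ZT14 in the wild type, and 128 and 124 at ZT10 and 156 and 164 at ZT14 in the mutant and a step of 0.28 ± 0.10 (adjusted p = 0.695). Its mutant values lay above its wild-type values at both times.

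Of the 11 genes that modify the loop, 10 had a step below 0, against 48.9% of all genes, and the median was -0.08 against 0.005 for all genes. The one with the clearest step was cry, the cryptochrome gene, with 205 and 207 CPM at ZT10 and 142 and 138 at ZT14 in the wild type, and 217 and 204 at ZT10 and 136 and 117 at ZT14 in the mutant. The 4 ZT10 libraries lay between 204 and 217 CPM and the 4 ZT14 libraries between 117 and 142 CPM. The step was -0.64 ± 0.09 (adjusted p = 0.0713), -0.56 ± 0.12 in the wild type and -0.73 ± 0.12 in the mutant, with a difference of -0.17 ± 0.17 (adjusted p = 0.905). It was called with DESeq2 and with gene length offsets.

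The remaining modifiers gave pooled steps between -0.21 and 0.02. They were the F-box gene jet (-0.08 ± 0.10), which acts with cryptochrome on TIM, the kinase genes dco (-0.05 ± 0.08), sgg (-0.21 ± 0.11), nmo (-0.20 ± 0.19), CkIIalpha (-0.02 ± 0.15) and CkIIbeta (0.02 ± 0.08), the F-box gene slmb (-0.01 ± 0.08) and the phosphatase subunit genes mts (-0.09 ± 0.09), tws (-0.13 ± 0.10) and wdb (-0.03 ± 0.09). None of these 10 was separated in both genotypes. No library of sgg at ZT14 in the wild type reached its ZT10 values, with 594 and 649 CPM at ZT10 and 471 and 535 CPM at ZT14, while the mutant values overlapped.

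**Figure D2:**
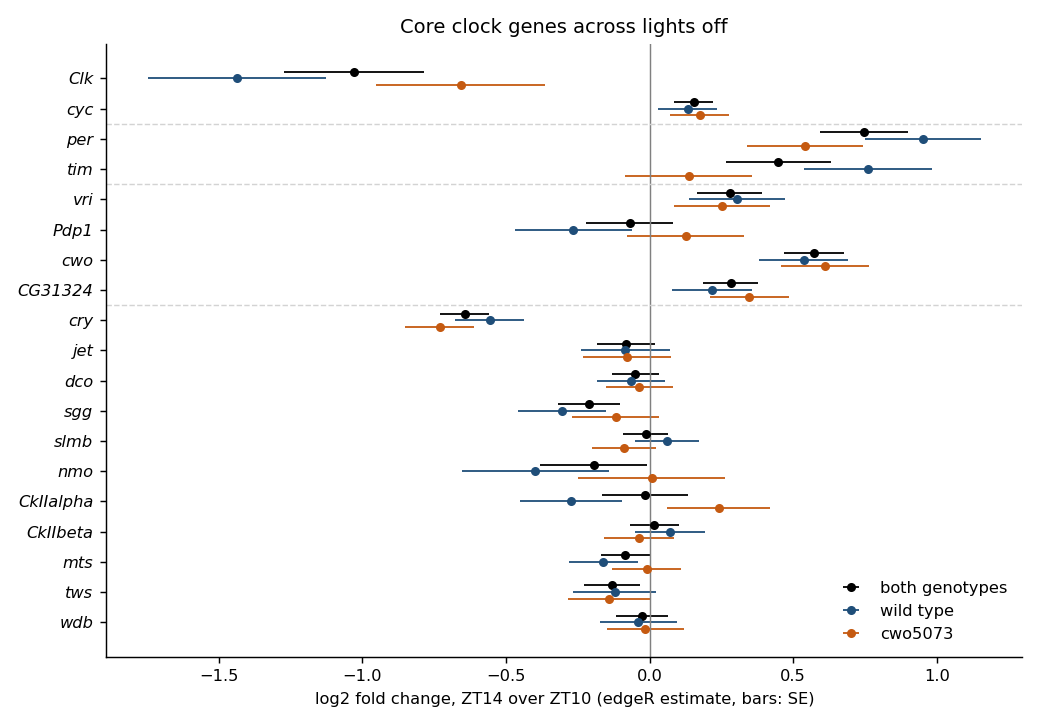
Log2 fold change from ZT10 to ZT14 of the 19 core clock genes, with SE as bars, from the fit over both genotypes (black) and for the wild type (blue) and cwo5073 (orange). Dashed lines part activators, repressors, second loop and modifiers; per, tim and cwo lie to the right of 0, Clk and cry to the left, and most kinase and phosphatase genes lie near 0.

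Genes listed as outputs of the clock in heads were tested next; 23 of 28 were measured with enough counts. CG17386 is one of them and was the called member. The median step of the 23 was 0.07. In both genotypes 3 were separated upward, CG17386, CG11854 (0.77 ± 0.18) and CG14275 (0.20 ± 0.10), and 1 downward, Dat (-0.25 ± 0.08), against 4.09% upward and 3.02% downward of all genes. Dat, which encodes the dopamine N-acetyltransferase, gave 116 and 120.1 CPM at ZT10 and 97.1 and 99.8 at ZT14 in the wild type, and 135 and 134 at ZT10 and 104 and 124 at ZT14 in the mutant. The takeout gene to, a feeding-related output, had 86.8 and 71.3 CPM at ZT10 and 102 and 65.9 at ZT14 in the wild type, and 116 and 124 at ZT10 and 184 and 145 at ZT14 in the mutant and a step of 0.27 ± 0.16 (adjusted p = 0.954).

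Of 23 measured genes for heat shock proteins and their helpers, 21 had a step below 0, against 48.9% of all genes, and none was called. The median was -0.28 for the pooled step, -0.11 in the wild type and -0.17 in the mutant. At an unadjusted p under 0.05, 7 were lower and none higher, against 2.76% and 3.01% of all genes. Hsp83, the fly Hsp90, gave 790.0 and 809 CPM at ZT10 and 534 and 366 at ZT14 in the wild type, and 862 and 940.3 at ZT10 and 405 and 353 at ZT14 in the mutant. Its 4 ZT10 values lay between 790 and 940 CPM, and its highest ZT14 value was 534 CPM. The step was -1.04 ± 0.15 (adjusted p = 0.0903), -0.83 ± 0.19 in the wild type and -1.25 ± 0.19 in the mutant. Without the wild-type ZT14 replicate 1 library it was -1.20 and was called (adjusted p = 0.0236).

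Hop, which links Hsp70 to Hsp90, gave 58 and 56.7 CPM at ZT10 and 42.6 and 31.5 at ZT14 in the wild type, and 59.1 and 60.6 at ZT10 and 37.3 and 35.1 at ZT14 in the mutant and a step of -0.68 ± 0.10 (adjusted p = 0.101). DnaJ-1, a helper of Hsp70, gave 135 and 169 CPM at ZT10 and 104 and 79.7 at ZT14 in the wild type, and 133 and 161 at ZT10 and 98.1 and 92.1 at ZT14 in the mutant and a step of -0.68 ± 0.12 (adjusted p = 0.19). For both, each ZT14 library lay below each ZT10 library of its genotype. The constitutive Hsc70-4 gave 2062 and 1797 CPM at ZT10 and 1803 and 1474 at ZT14 in the wild type, and 2236 and 2290 at ZT10 and 1945 and 1660 at ZT14 in the mutant, and there the wild-type libraries of the 2 times overlapped. The inducible Hsp70 copies are near identical and their counts may be divided among them: Hsp70Ab, Hsp70Ba, Hsp70Bb, Hsp70Bbb and Hsp70Bc had steps between -0.50 and -0.40, with the wild-type steps between -0.29 and -0.05. The factor gene Hsf was among the 2 with a step above 0, at 0.09 ± 0.07, and the other was Hsp22, at 0.79 ± 0.44 with 9.99 and 53.4 CPM at ZT10 and 46.2 and 81.4 at ZT14 in the wild type, and 17.1 and 15.1 at ZT10 and 24.7 and 22.9 at ZT14 in the mutant.

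Of 15 genes known to respond to neuronal activity, 14 had a step below 0, against 48.9% of all genes. The median was -0.21, against 0.005 for all genes, and none was called in the pooled step. At an unadjusted p under 0.05, 5 were lower and none higher, against 2.76% and 3.01% of all genes. Hr38, a nuclear receptor gene induced by neuronal firing, gave 21 and 16.7 CPM at ZT10 and 15.6 and 10.7 at ZT14 in the wild type, and 36.3 and 28 at ZT10 and 12.3 and 8.57 at ZT14 in the mutant. The step was -0.52 in the wild type and -1.62 in the mutant, and the pooled step was -1.08 ± 0.27 (adjusted p = 0.399). CG14186 gave 291 and 301 CPM at ZT10 and 236 and 219 at ZT14 in the wild type, and 279.5 and 295 at ZT10 and 174 and 144 at ZT14 in the mutant, a step of -0.62 ± 0.12 (adjusted p = 0.233). The transcription factor gene sr had a step of -0.66 ± 0.26, and its wild-type libraries overlapped, with 39.7 and 24 CPM at ZT10 and 29.9 and 14.7 CPM at ZT14. Hr38, CG14186 and the Fos gene kay (-0.21 ± 0.11) were the 3 of 15 separated downward in both genotypes, against 3.02% of all genes.

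Arc2, a gene of the Gag-like Arc family, is a member of this list. It gave 24.3 and 21.8 CPM at ZT10 and 7.81 and 9.06 at ZT14 in the wild type, and 7.59 and 8.21 at ZT10 and 6.4 and 7.73 at ZT14 in the mutant. The wild-type ZT10 libraries stood above the other 6, which lay between 6.40 and 9.06 CPM. The wild-type step, -1.45 ± 0.17, was called (adjusted p = 0.0322) and the mutant step was -0.16 ± 0.17, while the difference of 1.29 ± 0.23 was not called (adjusted p = 0.66). The wild-type call was lost in all 8 fits that left out 1 library (adjusted p from 0.0698 to 0.229).

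The 25 measured photoreceptor genes had a median step of 0.03 and none was called. The rhodopsin gene ninaE gave 34947 and 36856 CPM at ZT10 and 36104 and 30638 at ZT14 in the wild type, and 41037 and 46442 at ZT10 and 41323 and 40464 at ZT14 in the mutant, a step of -0.10 ± 0.10. In both genotypes 1 member was separated upward and 2 downward, against 4.09% and 3.02% of all genes. The phosphatase gene laza was lower (-0.47 ± 0.09), with 135 and 143 CPM at ZT10 and 86.5 and 90.8 at ZT14 in the wild type, and 120.3 and 116 at ZT10 and 99.4 and 94.6 at ZT14 in the mutant. The eye protein kinase C gene inaC was lower (-0.30 ± 0.10) and the transcription factor gene gl was higher (0.43 ± 0.13). The channel gene trpl, with 2883 and 4451 CPM at ZT10 and 2918 and 2959 at ZT14 in the wild type, and 5617 and 5448 at ZT10 and 4618 and 3307 at ZT14 in the mutant, had a step of -0.40 ± 0.16, and its wild-type libraries overlapped between times.

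Of 7 opsin genes, Rh2, the opsin of the ocelli, was separated upward with 334 and 207 CPM at ZT10 and 353 and 363 at ZT14 in the wild type, and 237 and 217 at ZT10 and 347 and 349.7 at ZT14 in the mutant and a step of 0.51 ± 0.15 (adjusted p = 0.543). The other 6 had steps between -0.10 (Rh7) and 0.10 (Rh4), and their libraries overlapped in at least 1 genotype. Of all genes 4.09% were separated upward.

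**Figure D3:**
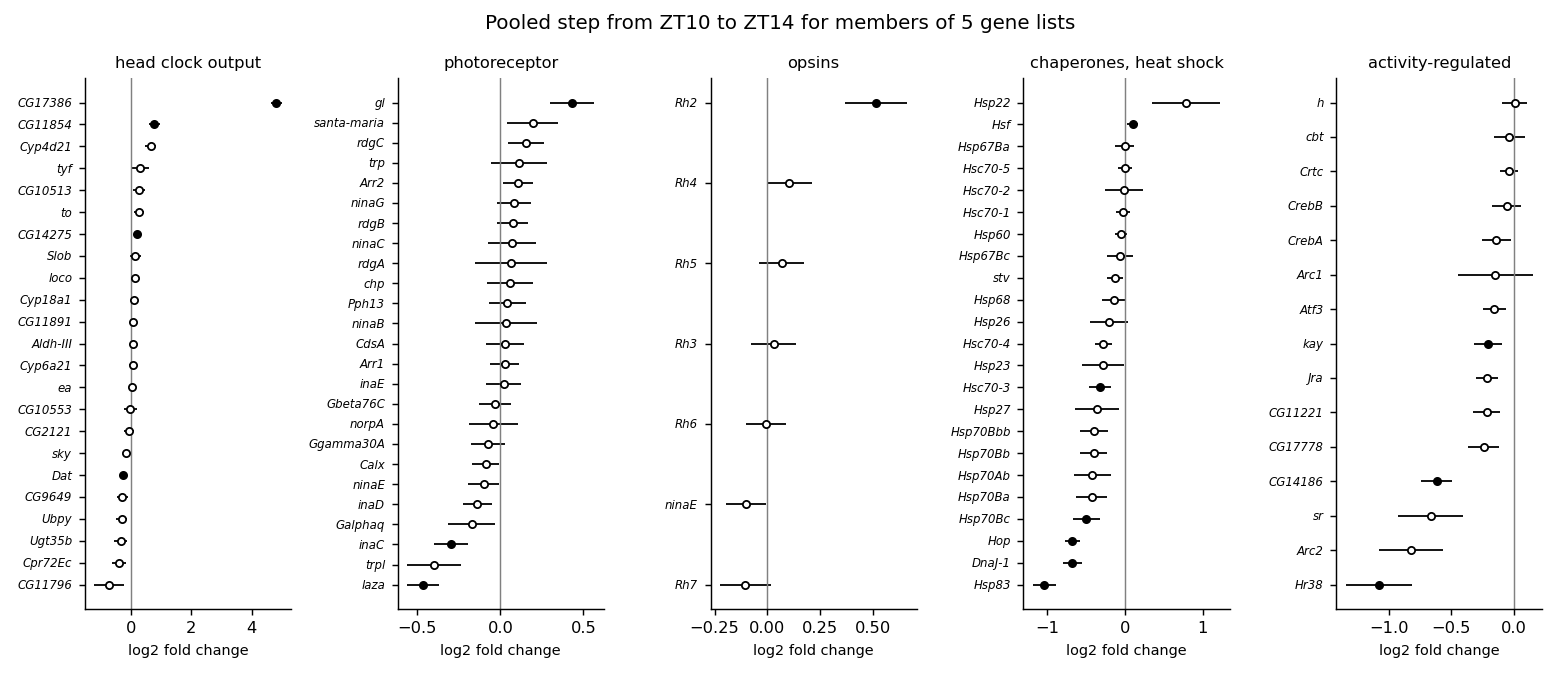
Pooled log2 fold change from ZT10 to ZT14, with SE as bars, of each measured member of 5 gene lists; the horizontal scale differs between panels. Filled points mark genes whose libraries of the 2 times do not overlap in either genotype. Left of 0 lie 21 of 23 chaperone and heat shock genes and 14 of 15 activity-regulated genes, against 48.9% of all genes. CG17386 lies far to the right among the head outputs.

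Of 85 measured cytosolic ribosomal protein genes, 84 had a pooled step below 0, against 48.9% of all genes. None was called and none was separated in both genotypes. The median step was -0.35 in the wild type and 0.03 in the mutant. Over all genes, Spearman's rho between the step and transcript length was 0.34 in the wild type and -0.26 in the mutant, across 10671 genes that are not independent replicates. With gene length offsets, the pooled median of the list was -0.11 instead of -0.17. Mitochondrial ribosomal protein genes had a median of 0.07, and 4 of 73 (5.48%) were separated upward, near the 4.09% of all genes.

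Of 36 measured proteasome genes, 69 of oxidative phosphorylation, 19 of glia and 22 of muscle, none was separated in both genotypes in either direction. Of all genes 4.09% were separated upward and 3.02% downward. The medians of these lists were 0.03, -0.03, -0.02 and 0.04. For oxidative phosphorylation 52 of 69 steps were below 0, against 48.9% of all genes, and the median was -0.15 in the wild type and 0.09 in the mutant. Pooled medians lay further from that of all genes, 0.005, for fat body genes (-0.15, 23 genes), glutathione S-transferases (-0.13, 30 genes) and the female-biased and male-biased markers (-0.21 and -0.20, 5 genes each), and none of these had a called member. Of 24 neuronal genes 1 (4.17%) was separated, sei upward (0.25 ± 0.10), which is near the share of all genes. Among 34 neuropeptide genes none was separated, and 24 had a step below 0, against 48.9% of all genes. In the monoamine list of 21 genes, b, which encodes an aspartate decarboxylase, was separated upward (0.38 ± 0.08) and Dat downward. Each makes 4.76% of that list, against 4.09% upward and 3.02% downward of all genes. Of 18 measured glutathione and redox genes 9 had a step below 0, and the median was 0.006. In that list 2 (11.1%) were separated upward, against 4.09% of all genes, and 0 downward. They were the peroxiredoxin genes Prx2540-1 (0.77 ± 0.18) and Prx2540-2 (0.85 ± 0.21). These are close copies of each other and their counts may be divided between them. In the pooled step no list named here other than the head outputs had a called member.

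The step was then taken in each genotype alone. In the wild type 11 genes were called higher (0.103%) and 6 lower (0.0562%), and in the mutant 1 higher (0.00937%), CG17386, and 0 lower (0%). Without adjustment 855 genes (8.01%) in the wild type and 298 (2.79%) in the mutant were under 0.05. In the mutant DESeq2 called 9 higher and 10 lower, and limma on log2(FPKM + 1) called 2 and 1. Across genes the 2 steps had a Spearman's rho of 0.02, and 48.4% of genes had the same sign, as a description of 10671 genes. The rho of the step with transcript length was 0.34 in the wild type and -0.26 in the mutant. For single libraries, the rho of the deviation from the gene mean with length ran from -0.42 (wild-type ZT10 replicate 1) to 0.35 (mutant ZT10 replicate 1). The part of these length trends in the low likeness of the steps was not tested.

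Of the 17 genes called in the wild type, CG17386, CG8419, Side, CG11760 and CG17327 are described above. Exn gave 97.2 and 144 CPM at ZT10 and 374 and 437 at ZT14 in the wild type, and 263 and 295 at ZT10 and 556 and 486 at ZT14 in the mutant. It was higher at ZT14 in both genotypes, with a wild-type step of 1.75 ± 0.21 (adjusted p = 0.0378) and a mutant step of 0.90 ± 0.20. The genes dy, which encodes a membrane protein that shapes cuticle, and rgr were also called higher in the wild type, with wild-type steps of 3.83 ± 0.38 and 1.37 ± 0.14 and mutant steps of 1.08 ± 0.32 and 0.59 ± 0.14. The dy step rests on low values, with 0.535 and 0.672 CPM at ZT10 and 7.36 and 10.3 at ZT14 in the wild type. Its average log2 CPM of 2.12 lay under the level of 3 set for naming genes. In Exn, dy and rgr the differences between genotypes, -0.85 ± 0.29, -2.75 ± 0.49 and -0.77 ± 0.20, were not called (adjusted p = 0.905, 0.66 and 0.905). Of the 8 fits that left out 1 library, the wild-type call was lost in 7 for Exn (adjusted p up to 0.162), in 3 for dy (up to 0.157) and in 7 for rgr (up to 0.162).

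A difference of the step between genotypes was called for 4 genes (0.0375%), with 349 (3.27%) under 0.05 without adjustment. CG44194 had a larger value in the mutant (mutant minus wild type, 8.19 ± 0.32, adjusted p = 1.91e-04), and its place is shared with CG17327 as given above. Lower in the mutant were CG43778 (-3.78 ± 0.15, adjusted p = 1.91e-04), stnB (-9.71 ± 0.87, adjusted p = 0.0232) and Tim9b (adjusted p = 0.00129). In these 3, of the 8 libraries only those of the wild type at ZT10 were low. At other times Tim9b was also at 0 in wild-type ZT18 replicate 1, and stnB at 0 in wild-type ZT22 replicate 1. The stnB call was lost without wild-type ZT14 replicate 1 (adjusted p = 0.0651), mutant ZT14 replicate 1 (0.183) or mutant ZT14 replicate 2 (0.115). With wild-type ZT10 values of 1.16 and 0 CPM its fitted size is no bound, and it ran from -15.74 to -8.48 when 1 library was left out. The fitted size for Tim9b is not given because it had no count in the wild type at ZT10, where a floor of 3 counts per library puts the rise to ZT14 at 93.9-fold or more.

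Tim9b, a gene of the mitochondrial import machinery, gave 0 and 0 CPM at ZT10 and 18.8 and 23.5 at ZT14 in the wild type, and 17 and 19.4 at ZT10 and 18.9 and 17.9 at ZT14 in the mutant. CG12788, which overlaps it on the same strand, was at 18.9 and 21.8 CPM in the wild-type ZT10 libraries and at 2.58 CPM or less in the other 6. The step of the sum of both models was 0.07 in the wild type (adjusted p = 0.911). At the stoned locus, where 1 transcript carries both the stnA and the stnB reading frames, stnB was at 1.16 and 0 CPM in the wild type at ZT10 and at 311 to 416 CPM in the other 6 libraries. There stnA was at 554 and 551 CPM at ZT10 in the wild type and at 213 to 399 CPM elsewhere, and the wild-type step of the sum was 0.21 (adjusted p = 0.711).

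CG43778 differed from these loci. It gave 17.4 and 18 CPM at ZT10 and 231 and 217 at ZT14 in the wild type, and 232 and 233 at ZT10 and 215 and 213 at ZT14 in the mutant, and its same-strand neighbour CG43779 held 0.185 to 2.70 CPM in the 8 libraries. Summed, the difference was -3.64 ± 0.17 and was the 1 call of 10210 loci (0.00979%). With all 24 libraries in 1 fit, no difference was called, that of CG43778 included. CG16825 overlaps CG43778 on the other strand. With all 24 libraries scaled together, it was at 0.623 and 5.55 CPM in the wild type at ZT10. In the other libraries of ZT10 and ZT14 it was at 9.56 to 31.4 CPM. At the other times the level of CG43778 was irregular in both genotypes, from 5.96 CPM in ZT2 replicate 1 to 164 CPM in ZT6 replicate 2 in the wild type. In the mutant it was 30.4 CPM in ZT2 replicate 2, 9.44 CPM in ZT18 replicate 2 and 11.7 CPM in ZT22 replicate 2, against 150 to 176 CPM in the other 5 mutant libraries of ZT2, ZT6, ZT18 and ZT22.

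Of the 5 higher and 5 lower differences with the smallest p, CG33655, Ccdc56, Arc2, CG8620, Rox8 and CG32333 did not pass the test of the difference. CG33655 was at 96.9 and 99.6 CPM at ZT10 and 0 and 1.48 at ZT14 in the wild type, and at 88.0 to 108 CPM in the mutant. At other times its replicates could differ widely, with 2.13 and 74.3 CPM in the wild type at ZT2. In the mutant it gave 62.5 and 4.29 CPM at ZT6 and 72.5 and 0 at ZT18. Ccdc56 fell from 102 and 106 CPM to 52.7 and 54.6 CPM in the wild type, where the overlapping mtTFB1 went from 7.49 and 2.63 CPM to 46.3 and 51.4 CPM, and the wild-type step of the sum was -0.09. Rox8, an RNA-binding protein gene, gave 72.7 and 77.3 CPM at ZT10 and 175 and 177 at ZT14 in the wild type, and 172 and 174 at ZT10 and 166 and 162 at ZT14 in the mutant. As with CG43778 and stnB, the 2 wild-type ZT10 libraries stood apart from the other 6. At other times, with all 24 libraries scaled together, single libraries of Rox8 were low as well. They were wild-type ZT6 replicate 2 (83.0 CPM), wild-type ZT22 replicate 1 (43.2 CPM) and mutant ZT18 replicate 2 (61.3 CPM). CG32333 gave 36.7 and 36.1 CPM at ZT10 and 80.4 and 91.3 at ZT14 in the wild type, and 101 and 101 at ZT10 and 92.5 and 78 at ZT14 in the mutant and CG8620 gave 22.2 and 22.6 CPM at ZT10 and 9.47 and 7.88 at ZT14 in the wild type, and 2 and 2.57 at ZT10 and 2.87 and 2.34 at ZT14 in the mutant.

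**Figure D4:**
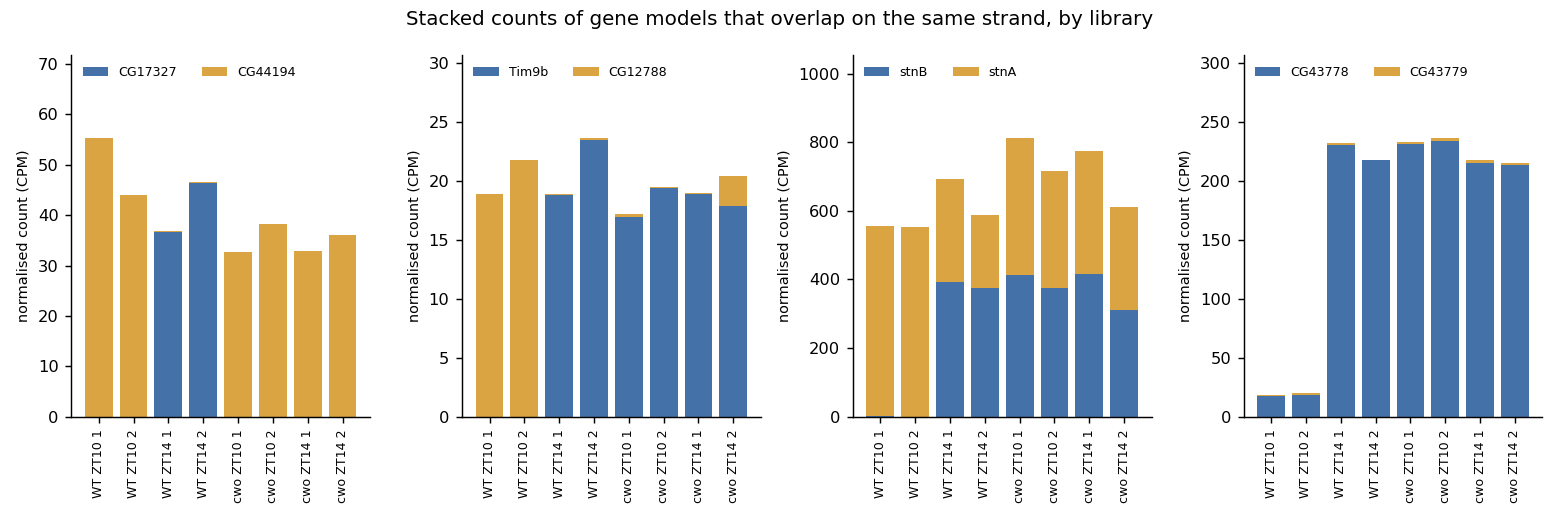
Stacked normalised counts (CPM, linear axis from 0) of 4 pairs of gene models that overlap on the same strand, in each of the 8 libraries (genotype, time and replicate on the horizontal axis). In the first 3 panels counts move from one model to the other while the total changes less; in the fourth CG43778 itself is low in both wild-type ZT10 libraries.

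The lights-off step was set beside the 5 other steps of 4 h, each fitted on its own 8 libraries with genotype as a block. The step from ZT6 to ZT10 called 21 genes (0.195%), 13 higher and 8 lower, among them per, tim and vri higher and Clk and CG17386 lower. The steps from ZT14 to ZT18 and from ZT18 to ZT22 called 0 by edgeR, with 529 (4.95%) and 1024 genes (9.55%) under 0.05 without adjustment. The step from ZT2 to ZT6 called 3 genes (0.0279%) and that from ZT22 to ZT2 called 2 (0.0187%). The spread between libraries, as edgeR's common coefficient of variation, was larger in these fits, at 0.307 and 0.325. In the other steps, lights off included, it was 0.186 to 0.266. Without adjustment 4.02% of genes were under 0.05 from ZT2 to ZT6, 8.53% from ZT6 to ZT10 and 3.42% from ZT22 to ZT2, against 5.76% at lights off. Neighbouring steps share libraries, so their calls are not compared gene by gene. With all 24 libraries in 1 fit, the lights-off step called 10 higher and 4 lower, and the 5 others, in order from ZT2, called 6 higher and 5 lower, 10 and 16, 10 and 3, 19 and 37, and 42 and 17.

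Over the day, the mean of the 4 libraries of CG17386 was lowest at ZT10 (4.8 CPM) and highest at ZT22 (308 CPM). CG8419 was lowest at ZT10 (13.2 CPM) and highest at ZT18 (60.8 CPM), so for both genes ZT10 was the low point of the 6 times. Side was highest at ZT10 (81.4 CPM) and lowest at ZT14 (38.6 CPM). The transcripts of per, tim and cwo had their highest mean at ZT14 and Clk and Hsp83 their lowest.

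The lights-on step, from ZT22 to ZT2, shares no library with the lights-off step. Of 10523 genes measured in both, 605 were under 0.05 without adjustment at lights off and 350 at lights on. Of all genes tested in each step these were 5.76% and 3.42%. Both lists held 93 genes, 15.4% of the first and 26.6% of the second. Of these 93, 91 moved in opposite directions and 2 in the same. The share of all genes with opposite signs was not computed. In each step the transition and the passing of 4 h of the daily cycle cannot be told apart. No gene was called in both by edgeR on 8 libraries each, and 6 were with all 24 libraries in 1 fit. The wild-type ZT2 replicate 2 library had 1.68% of its counts on ninaE, against 2.73% to 4.67% in the other libraries of the series. Without it, 133 genes were in both lists, 21.8% and 22.7% of them, and 129 moved in opposite directions.

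CG17386, which rose by 4.82 at lights off, had a lights-on step of -2.05 (adjusted p = 0.201). CG8419 had -1.23 (adjusted p = 0.199) and Ir75a 1.301 (adjusted p = 0.0893). For Hr38 the lights-on step was 1.73 (adjusted p = 0.289). Clk, with a lights-off step of -1.03, had a lights-on step of -0.03, and per had 0.18. Side was lower after both transitions in the fits, at -1.08 and -0.41, though the second was not called (adjusted p = 0.99).

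**Figure D5:**
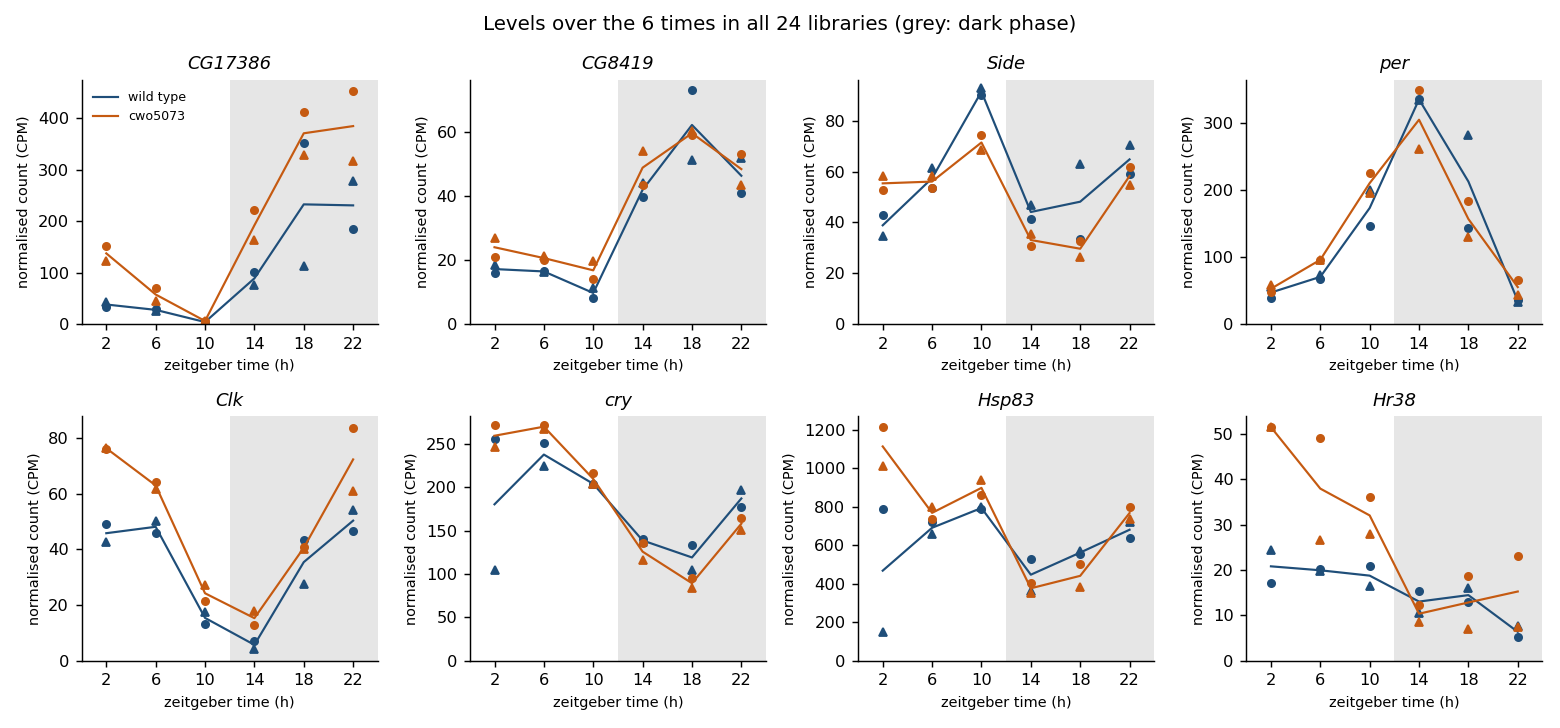
Normalised counts (CPM, linear axis from 0) of 8 genes at the 6 zeitgeber times in wild-type (blue) and cwo5073 (orange) heads, all 24 libraries scaled together. Circles and triangles are replicates 1 and 2, lines join group means and grey marks the dark phase; CG17386 and CG8419 climb from a low point at ZT10, while Side, Hsp83 and Clk are lowest or near their lowest at ZT14.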

How the data were processed

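Poly(A) RNA of fly heads was sequenced as single-end reads of 75 bp after a directional library kit, per the labels' protocols. Per the submitters' processing notes, the build was dm6 and the tools included STAR 2.6.1d, StringTie and DESeq2. The deposited gene table holds estimated counts, made by the authors and rounded here to whole numbers; rounding and overlapping models can move single genes. The authors' deposited tables also give FPKM per gene and, per the file headers, FPKM and coverage (a signal) per transcript; no header or label says whether strand was used in counting. All replicates were deposited separately. No gene symbol that reads as a date was used (5 names, at most 0.0275% of counts).

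Genes with enough counts were kept by edgeR's default filter, scaled by TMM and tested with edgeR 4.0.16's quasi-likelihood test in R 4.3.3, with Benjamini-Hochberg adjustment over all 10671 genes. The pooled step had genotype as a block (5 residual degrees of freedom), and the steps within genotypes and their difference came from 4 groups (4 residual degrees of freedom). Transcripts were tested with limma 3.58.1 on log2(FPKM + 1), which understates changes of low values. Alternatives used DESeq2 1.42.0, other scalings, filters and pseudocounts, gene length offsets, all 24 libraries, a replicate block, models overlapping by at least 50% of the shorter summed, and each library left out; the summing and the checks of overlap between times and of list medians were chosen after seeing the data. Scripts were tested on simulated data.

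Named are all core clock genes, up to 15 called genes in each direction with an average log2 CPM of at least 3 and 1 sign in both genotypes, the 5 higher and 5 lower differences between genotypes with the smallest p, and called members of lists. The members and lists were chosen with earlier results of these data known. RefSeq symbols matched 16636 of 16727 genes.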

Additional observations from a re-analysis of the deposited data

Results flagged for a closer look

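For 4 genes the step differed between genotypes by the test of the difference, mutant minus wild type on the log2 scale: CG44194 (8.19), CG43778 (-3.78), Tim9b (-11.38) and stnB (-9.71). The Tim9b value is a fitted one with no count in the wild type at ZT10 and is no bound. The stnB value rests on 1.16 and 0 CPM in the same group. With same-strand overlapping models summed, the differences of CG44194, Tim9b and stnB were 0.21, 0.04 and -0.35. None of these was called by edgeR (adjusted p = 0.92, 0.983 and 0.906), while CG43778 kept its call at -3.64. With all 24 libraries in 1 fit no difference was called. In 5 clock genes 1 library stood apart from the other 3 of its time: cyc in mutant ZT10 replicate 2 (37.6 CPM), per in mutant ZT14 replicate 2 (263.6 CPM), tim in wild-type ZT14 replicate 2 (1469 CPM), jet in wild-type ZT14 replicate 2 (21.1 CPM) and CkIIalpha in mutant ZT14 replicate 1 (127.4 CPM). Chance puts about 1 in 20 groups past this limit, and each group of 4 here holds both genotypes.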

How the results depend on the processing

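Higher and lower calls of the pooled step (3 and 2) became 9 and 4 as the mean of the steps from 4 groups, 34 and 36 with DESeq2, 10 and 4 with all 24 libraries, 7 and 7 with length offsets, 2 and 1 with overlapping models summed; limma on log2(FPKM + 1) called 1 lower. The wild-type step (11 and 6) gave 48 and 43 with DESeq2, 2 lower with 24 libraries and 3 lower with models summed. The mutant step (1 and 0) gave 9 and 10 with DESeq2, 2 higher with 24 libraries, and 2 and 1 with limma, filtered or not. The difference (1 and 3) gave 10 and 10 with DESeq2, 0 and 0 with 24 libraries, 3 and 6 with limma (pseudocount 1), 2 and 6 (0.1), 3 and 7 (no filter), and 0 and 1 with models summed. In that 24-library fit the other steps gave 6 and 5 (from ZT2), 16 lower (from ZT6), 10 and 3 (from ZT14), 19 and 37 (from ZT18) and 42 and 17 (from ZT22), and 6 genes were called at lights off and on.

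Replicate numbers were not taken to pair the samples: deviations at ZT10 and ZT14 correlated at 0.0539 (wild type) and 0.272 (mutant). In the mutant, replicate 1 held the higher female-biased and fat body sums at both times, so libraries of 1 number may share a source there. With the replicate block the pooled step had 3 higher and 3 lower calls and the wild-type step 3 lower. The mutant step had 1 higher and 0 lower, as without the block. CG17327 had an adjusted p of 0.0766 in the pooled step with the block (0.0598 with length offsets as well). With the block and length offsets the pooled step had 7 higher calls.

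Without 1 library at a time, pooled calls ran from 1 to 5 higher and 2 to 4 lower, wild-type calls from 5 to 21 and 1 to 7, mutant calls from 1 to 5 and 0 to 7, and differences from 1 to 7 and 2 to 14. Pooled higher calls were 1 without wild-type ZT10 replicate 2 or either wild-type ZT14 library, and 5 without wild-type ZT10 replicate 1. Pooled lower calls were 4 without wild-type ZT14 replicate 1. Wild-type higher calls were 21 without wild-type ZT14 replicate 2 and 5 without its replicate 1, mutant calls were 5 higher without mutant ZT10 replicate 1 and 7 lower without mutant ZT14 replicate 2, and differences were 7 higher without wild-type ZT14 replicate 1 and 14 lower without its replicate 2. Calls of the other steps ran from 0 to 2 and 1 to 4 (ZT2), 4 to 13 and 3 to 10 (ZT6), 0 to 1 and 0 to 0 (ZT14, ZT18, ZT22); clock transcripts stayed at 0.

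Signs turned for the jet pooled step (0.00851, 0.0101 with pseudocount 0.1), the slmb pooled step (0.00745, 0.00747) and the CkIIalpha pooled step (0.0151, 0.0159) with limma, for the CkIIbeta pooled step with length offsets (-0.00144, with block -0.000384), and with models summed for CG17327 (-0.14 pooled, -0.25 wild type), CG11760 in the mutant (0.19) and the Tim9b difference (0.0405). Leaving out 1 library, CkIIalpha ran from -0.11 to 0.14, CkIIbeta from -0.022 to 0.070, Pdp1 from -0.17 to 0.054, slmb from -0.063 to 0.021 and wdb from -0.078 to 0.015. The cause was not tested.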
